A study of Mus musculus with 24 samples.

Results

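The 10 genes described here are Actb, Actg1, Pfn1, Cfl1, Tpm3, Tpm4, Myh9, Coro1a, Vim and Nck1, which encode actins, proteins that bind them, the vimentin filament protein and an adaptor that connects receptors to actin. They were picked by symbol, with results of these data known, from the 55414 genes of the deposited count table, and all 10 were among the 10566 genes that passed the filter on low counts. Because the choice rested on no stated threshold or comparison, every value of these genes across the groups counts as used for it. The values are a description, and calls given for these genes below are part of it and not tests. Tests were run on other genes of the actin machinery, in lists that were also chosen with earlier results of these data known.

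The cells were splenic Tconv CD4+ cells (CD4+ CD25-), labelled TE, that were isolated on magnetic columns from conplastic mice. All mice carried the C57BL/6J nuclear genome, and they differed in the mitochondrial DNA, which came from C57BL/6J (mtDNA B6, labelled WT) or from the NZB strain (mtDNA NZB). Cells of each haplotype were profiled at rest or after 72 h with CD3/CD28 beads and IL-2, which gave 4 groups of 6 libraries: resting and activated mtDNA B6 cells, and resting and activated mtDNA NZB cells. The methods give an age of 2 to 3 months for most mice, and the libraries carry no age of their own. The labels do not say which libraries came from separate animals, so the spread between libraries may be in part technical. The methods describe a division of the isolated cells into resting and activated ones. Libraries of both states may thus share animals, which the main fit did not model. RNA was counted by a bulk form of MARS-seq, in which each captured 3′ end carries a unique molecular identifier (UMI), and levels are given as CPM, UMI counts scaled by library size and TMM factors.

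Actin monomers assemble into filaments that give a T cell its cortex, drive its migration and hold the contact it forms with an antigen-presenting cell. Profilin loads monomers for growth, cofilin severs and disassembles filaments, coronin 1A binds filaments and the Arp2/3 complex, tropomyosins coat filaments and set which proteins can bind them, and nonmuscle myosin II pulls on them. NCK1 is an adaptor that connects phosphorylated signalling proteins at the T cell receptor to the WASP and Arp2/3 machinery, and vimentin forms the intermediate filaments of lymphocytes.

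The cytoplasmic actins and the tropomyosins are close relatives, so their sequences are compared in the coding part and near the 3′ end. The first 30 coding bases of each gene are given 5′ to 3′ on the coding strand, from the canonical GENCODE transcript on GRCm39, with the bases that differ within a pair in capitals.
Actb: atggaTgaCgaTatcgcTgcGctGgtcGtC
Actg1: atggaAgaAgaAatcgcCgcActCgtcAtT
Tpm3: atggccggGACcaCcAcCAtCgaggcGgtA
Tpm4: atggccggCCTcaAcTcACtGgaggcAgtG
These bases lie in coding exons at chr5:142891412-142891441 (minus strand) for Actb, chr11:120238888-120238917 (minus strand) for Actg1, chr3:89987039-89987068 (plus strand) for Tpm3 and chr8:72889166-72889195 (plus strand) for Tpm4. Actb and Actg1 share 997 of 1125 coding bases (88.6%), with an identical run of 62 bases. In the last 500 bases of the transcripts, inside the 3′ stretch of 1000 bases on which reads were counted, their longest identical run is 11 bases. Tpm3 and Tpm4 share 546 of 744 coding bases (73.4%), and their longest identical run in the last 500 bases is 8 bases. By the longest identical run, the pairs were more alike in the coding part (62 and 32 bases) than in the last 500 bases (11 and 8). After the coding part 686 bases follow in Actb and 703 in Actg1. A stretch of 1000 bases from the transcript end thus also holds coding bases of both actins. The part of that stretch before the last 500 bases was not compared.

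Serum response factor (SRF), a transcription factor of many cytoskeletal genes, binds a sequence named the CArG box. RefSeq promoter windows of GRCm38.p6, from 250 bases before to 50 bases after a gene's start, were at hand for 9 of the 10 genes, and none was held for Actb. Searched on both strands, a CArG box was found in the window of Actg1 alone among the 9, beside 1.81% of the 27025 genes with a window. It is shown here with its letters in capitals, on the strand of the gene.
Actg1 CArG box: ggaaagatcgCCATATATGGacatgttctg
The window matches chr11:120239392-120239421 (minus strand) of GRCm39, and the first base of the box is 90 bases before the RefSeq start. In the canonical GENCODE transcript, which starts further upstream, it falls in the first exon before the coding part. The letters GGGCGG were found in a window of 8 of the 9 genes, all but Vim, beside 38.2% of all genes, and the letters CCAAT in windows of 5 (Actg1, Cfl1, Myh9, Vim and Nck1), beside 41.1%. CACGTG was found for Actg1 alone, beside 8.09% of genes, and TGANTCA for none, beside 8.97%. The CArG box did not overlap a CCAAT, and a match of letters does not show that a factor binds.

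Library totals ran from 51409 to 6449395 UMI counts. The lowest, resting mtDNA NZB replicate 2, was far below the next lowest at 641467, so a single molecule weighs heavily in its values. Results are also given over 21 libraries, without replicate 6 of activated mtDNA NZB cells and replicates 2 and 6 of resting mtDNA NZB cells, which an earlier comparison with the mean counts of the study had left out. Only resting replicate 2 of these is shallow, and activated replicate 6 is the deepest library. By the second deposited count divided by the UMI count, the libraries fell into 3 sets of 8 with different ratios, and the sets were spread unevenly: the set with the lowest ratio held 5 of 6 activated and 0 of 6 resting mtDNA B6 libraries.

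T cell markers (Cd3d, Cd3e, Cd3g, Trac and Cd4) were present in every library, with a summed level of 2313 to 4125 CPM, and the 5 activation markers summed to 79.4 to 291 CPM at rest and to 428 to 791 CPM after activation. At rest these activation markers reached 146 CPM at most with mtDNA B6, while mtDNA NZB replicates 5 and 6 stood at 198 and 291 CPM. Markers of other cells moved with activation. The 8 markers of macrophages and monocytes summed to 407 to 2670 CPM in the resting libraries of both haplotypes and to 8.05 to 108 CPM in the activated ones, where C1qa was at 0. The 7 markers of granulocytes and their precursors summed to 349 to 19154 CPM at rest and to 5.57 to 161 CPM after activation, and the 6 erythroid markers to 90.4 to 7173 CPM and 16.2 to 172 CPM. The pair of CD8 markers went the other way, from 16.9 to 142 CPM at rest to 82.0 to 534 CPM after activation, and so did the platelet list, from 7.28 to 50.8 CPM to 17.3 to 487 CPM. The 5 B cell markers ran from 74.4 to 1144 CPM with broad overlap between states, and the Treg, NK cell and fibroblast lists did not exceed 46.0, 33.9 and 5.71 CPM in any library, and of the 6 fibroblast and smooth muscle genes Col3a1, Dcn and Des were at 0 throughout while Col1a1, Col1a2 and Tagln had counts. At rest the sums also differed between haplotypes, with overlapping ranges. The granulocyte medians were 2541 CPM in mtDNA B6 and 702 CPM in mtDNA NZB libraries. The erythroid medians were 1361 and 238 CPM, and those of macrophages 1474 and 852 CPM. The 19154 CPM were in resting mtDNA NZB replicate 6, and over 21 libraries the resting mtDNA NZB granulocyte sums reached 798 CPM at most. The part of these other cells in the values below was not tested, and in bulk RNA fewer cells of a type and less RNA per cell cannot be told apart.

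**Figure D1:**
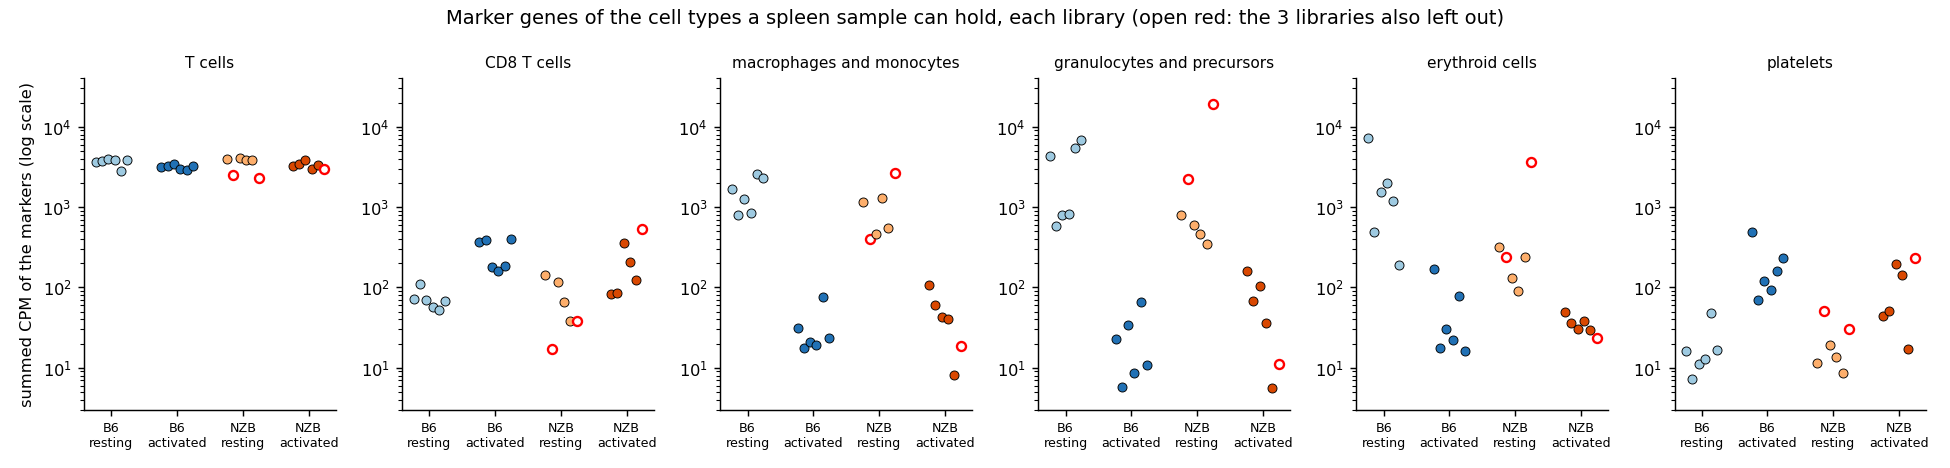
Summed CPM (log scale) of marker genes of 6 cell types in each of the 24 libraries, with open red points for the 3 libraries that are also left out. T cell markers stay between 2313 and 4125 CPM, while the macrophage, granulocyte and erythroid lists are lower after activation and the CD8 list is higher.

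The 10 genes together took 2.08% ± 0.14 of the UMI counts of resting mtDNA B6 libraries, 2.45% ± 0.26 of activated mtDNA B6 libraries, 2.19% ± 0.60 of resting mtDNA NZB libraries and 2.83% ± 0.63 of activated mtDNA NZB libraries (mean ± SD, n = 6 each). Without the 3 libraries the mtDNA NZB shares were 2.08% ± 0.40 at rest (n = 4) and 3.04% ± 0.41 after activation (n = 5). Actb alone gave 38.2 to 70.9% of these counts.

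**Figure D2:**
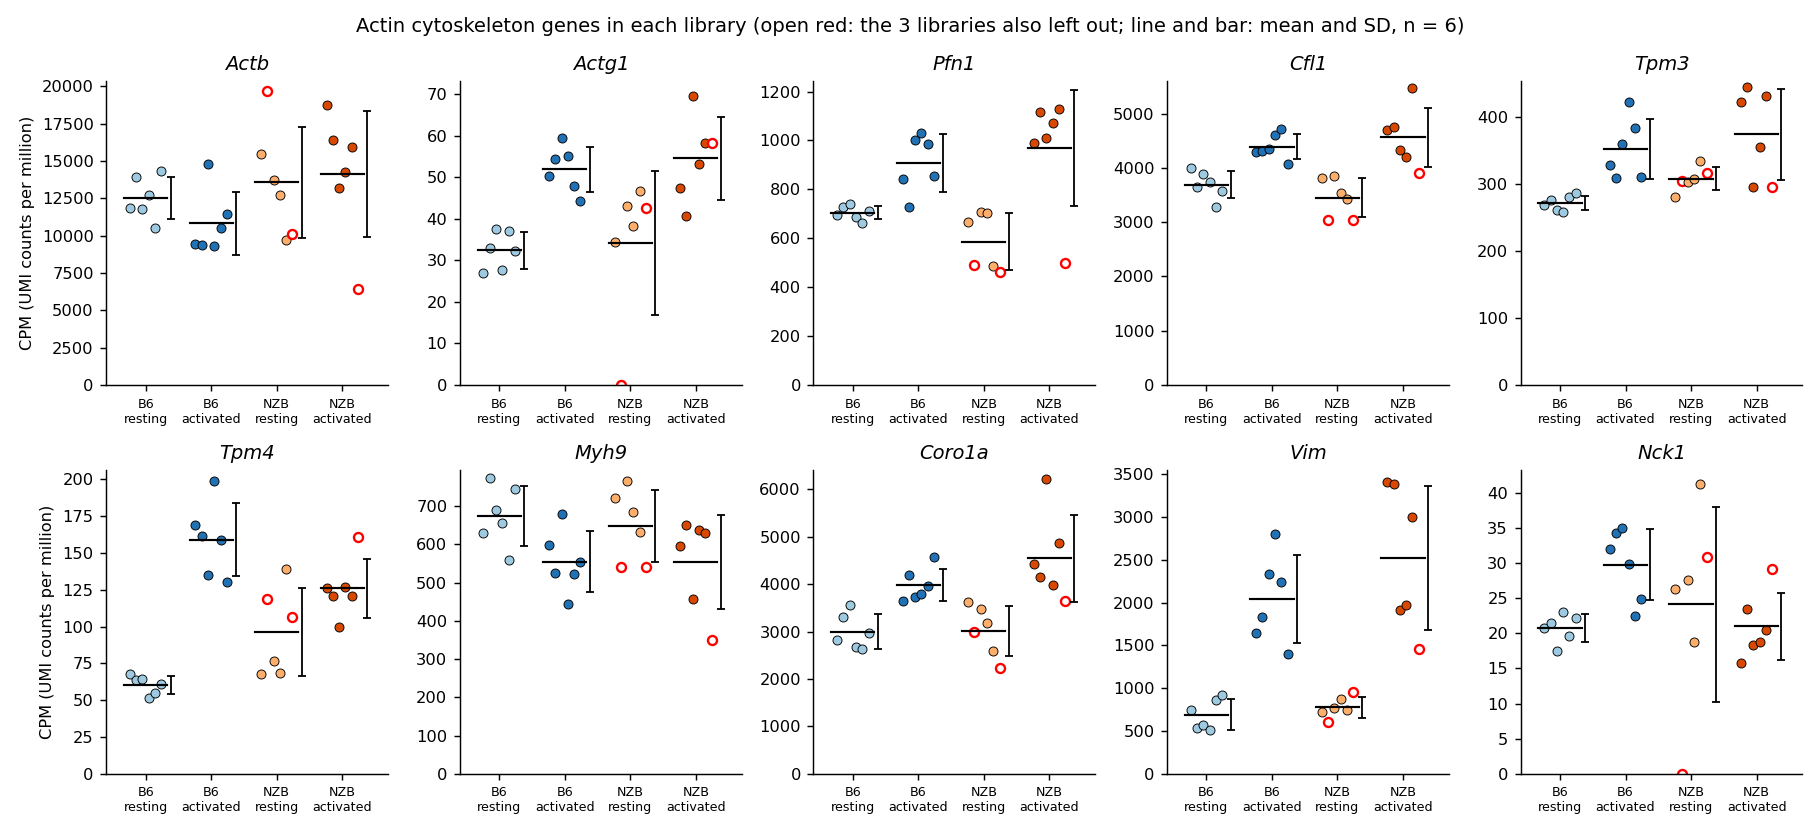
CPM of each of the 10 genes (linear axes from 0) in every library of the 4 groups, with the mean and SD of 6 libraries, and open red points for the 3 libraries that are also left out. The ranges of resting and activated libraries are apart for Vim, Cfl1 and Coro1a in both haplotypes and for Actg1, Tpm3 and Tpm4 with mtDNA B6, and the 0 values of Actg1 and Nck1 are both from resting mtDNA NZB replicate 2.

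Actb encodes β-actin, the main cytoplasmic actin of most cells. Its level ran from 10494 to 14292 CPM (median 12302) in resting mtDNA B6 libraries and from 9313 to 14808 CPM (median 9965) in activated ones. With mtDNA NZB it ran from 9717 to 19682 CPM (median 13206) at rest and from 6441 to 18712 CPM (median 15091) after activation. All ranges overlapped: 4 of the 6 activated mtDNA B6 libraries lay below every resting one, whereas replicate 3 lay above them all. The fitted log2 difference between activated and resting cells was -0.21 (SE 0.19, 95% interval -0.61 to 0.19) with mtDNA B6 and 0.06 (SE 0.19, -0.33 to 0.46) in mtDNA NZB cells, so neither interval left out 0. The lowest value, 6441 CPM, was in activated mtDNA NZB replicate 6, and the other 5 libraries of that group stood at 13158 CPM or more. Without the 3 libraries the activation difference in mtDNA NZB cells was 0.28 (-0.03 to 0.60), and activated mtDNA NZB exceeded activated mtDNA B6 cells by 0.54 on the log2 scale (0.26 to 0.82), against 0.39 (-0.01 to 0.78) over 24 libraries.

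Reads counted per molecule also differed among the genes. Actb had 2.95 second-table counts per UMI count over all libraries, more than 99.7% of the tested genes, whose median was 2.08, and in each library its ratio was 1.05 to 1.40 times that of the library. Cfl1 and Coro1a, also abundant, had 2.40 and 2.34. In the second table the log2 differences of Actb with activation were -0.27 with mtDNA B6 and 0.09 in mtDNA NZB cells.

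Actg1 encodes γ-actin, the other cytoplasmic isoform. It ran from 26.9 to 37.4 CPM (median 32.7) in resting mtDNA B6 libraries and from 44.4 to 59.5 CPM (median 52.4) in activated ones, without overlap. The difference was 0.68 on the log2 scale (SE 0.14, 95% interval 0.38 to 0.97). Among mtDNA NZB libraries it ran from 0 to 46.7 CPM (median 40.4) at rest and from 40.8 to 69.7 CPM (median 55.7) after activation, a difference of 0.46 (SE 0.15, 0.15 to 0.77). The 0 was in the shallow replicate 2, where no count allows a level of up to 50.8 CPM and so does not set the library apart from the others. Actg1 had only 3454 UMI counts in all libraries and 1.28 second-table counts per UMI, less than all but 1.29% of the tested genes, and how much of the γ-actin RNA these counts capture cannot be read from the files.

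Among the regulators of monomers and filament turnover, Pfn1 encodes profilin 1. Its level ran from 664 to 738 CPM (median 704) in resting and from 727 to 1030 CPM (median 919) in activated mtDNA B6 libraries, where 5 of 6 activated libraries lay above every resting one. In mtDNA NZB libraries it ran from 464 to 708 CPM (median 578) at rest and from 500 to 1129 CPM (median 1040) after activation. The log2 difference was 0.36 (SE 0.15, 95% interval 0.05 to 0.68) with mtDNA B6 and 0.71 (SE 0.15, 0.39 to 1.03) in mtDNA NZB cells. A single library made the mtDNA NZB ranges overlap: activated replicate 6 stood at 500 CPM and the other 5 at 989 CPM or more, and over the 21 libraries the groups were apart, with a difference of 0.73 (0.49 to 0.97). The same library was lowest in its group for Actb, Cfl1, Myh9, Coro1a and Vim and highest for Tpm4 and Nck1.

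Cfl1 encodes cofilin 1, the main severing factor of lymphocytes. It ran from 3282 to 3995 CPM (median 3694) in resting and from 4074 to 4725 CPM (median 4330) in activated mtDNA B6 libraries. With mtDNA NZB it ran from 3032 to 3843 CPM (median 3488) at rest and from 3914 to 5477 CPM (median 4512) after activation. The states did not overlap in either haplotype, although the differences were small, 0.25 (SE 0.09, 95% interval 0.06 to 0.44) and 0.40 (SE 0.09, 0.21 to 0.59) on the log2 scale. Between haplotypes Cfl1 differed by -0.09 at rest and 0.05 after activation, with intervals that held 0.

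The tropomyosins behaved unequally. Tpm3 ran from 259 to 287 CPM (median 273) in resting and from 310 to 423 CPM (median 345) in activated mtDNA B6 libraries, which did not overlap, a log2 difference of 0.38 (SE 0.11, 95% interval 0.16 to 0.59). Among mtDNA NZB libraries it ran from 281 to 334 CPM (median 306) at rest and from 296 to 445 CPM (median 389) after activation, a difference of 0.28 (SE 0.11, 0.05 to 0.50), and 4 of the 6 activated libraries lay above every resting one. At rest, 5 of 6 mtDNA NZB libraries were above every mtDNA B6 library, by 0.18 on the log2 scale with an interval that held 0 (-0.04 to 0.40).

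Tpm4 ran from 51.7 to 67.9 CPM (median 62.4) in resting mtDNA B6 libraries and from 130 to 199 CPM (median 160) in activated ones, so that the states were far apart, with a log2 difference of 1.39 (SE 0.16, 95% interval 1.08 to 1.71). In mtDNA NZB libraries it ran from 68.1 to 139 CPM (median 91.7) at rest and from 99.5 to 161 CPM (median 124) after activation, and a single activated library, replicate 6, lay above every resting one. That difference was 0.45 (SE 0.16, 0.12 to 0.78). Ordered by mean, the groups were resting mtDNA B6 (60.5 ± 6.16 CPM, SD, n = 6), resting mtDNA NZB (96.3 ± 29.8), activated mtDNA NZB (126 ± 19.8) and activated mtDNA B6 (159 ± 25). Both middle groups overlapped each other. The resting groups did not overlap, which held for 1.14% of all tested genes (5.35% over 21 libraries). All 6 mtDNA NZB libraries lay above the highest mtDNA B6 library, but the lowest of them stood at 68.1 CPM against 67.9 CPM. In the activated groups, 5 of 6 mtDNA NZB libraries lay below every mtDNA B6 library.

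The larger resting level in mtDNA NZB cells was uneven among libraries. Replicates 1, 3 and 4 stood at 68.1, 76.6 and 68.3 CPM, close to the top of the mtDNA B6 range, and replicates 2, 5 and 6 at 119, 139 and 107 CPM, of which replicate 2 rests on 7 UMI counts. The resting difference between haplotypes was 0.61 on the log2 scale over 24 libraries (SE 0.16, 95% interval 0.28 to 0.94), 0.53 over 21 libraries (0.19 to 0.88) and 0.42 without replicate 5. Tpm1, a further tropomyosin gene, did not pass the test for activation in either haplotype (log2 difference 0.09 in mtDNA B6 and 0.24 in mtDNA NZB cells), and Tpm2 had 18 UMI counts in all libraries and was not tested.

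Myh9, the heavy chain of nonmuscle myosin IIA, went the other way in its medians. It ran from 558 to 774 CPM (median 672) at rest and from 444 to 680 CPM (median 540) after activation in mtDNA B6 libraries, and 4 of 6 activated libraries lay below every resting one. With mtDNA NZB it ran from 540 to 766 CPM (median 660) at rest and from 349 to 652 CPM (median 613) after activation. The log2 differences, -0.28 (SE 0.14, 95% interval -0.57 to -0.00) and -0.24 (SE 0.14, -0.53 to 0.05), were alike in size, and Myh9 was the only one of the 10 genes with a lower fitted level after activation in both haplotypes.

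Coro1a encodes coronin 1A, which is largely confined to blood cells and is needed for T cell survival. It ran from 2634 to 3565 CPM (median 2897) in resting and from 3652 to 4569 CPM (median 3885) in activated mtDNA B6 libraries. Among mtDNA NZB libraries it ran from 2237 to 3625 CPM (median 3089) at rest and from 3652 to 6218 CPM (median 4293) after activation. States were apart in both haplotypes, by 0.41 (SE 0.13, 95% interval 0.15 to 0.68) and 0.59 (SE 0.13, 0.32 to 0.86) on the log2 scale.

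Vim showed the largest change of the 10 genes in both haplotypes. It ran from 509 to 923 CPM (median 657) in resting and from 1404 to 2808 CPM (median 2036) in activated mtDNA B6 libraries, a 2.95-fold difference (95% interval 2.20 to 3.97). In mtDNA NZB libraries it ran from 610 to 957 CPM (median 754) at rest and from 1456 to 3409 CPM (median 2485) after activation, a 3.20-fold difference (2.37 to 4.32). Every activated library lay above every resting one. Macrophages and fibroblasts also express Vim, and their part in its level was not tested.

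Nck1 had few counts, 1907 in all libraries. Its level ran from 17.5 to 23.1 CPM (median 21.1) in resting and from 22.5 to 35 CPM (median 31.0) in activated mtDNA B6 libraries, and 5 of the 6 activated libraries lay above every resting one. With mtDNA NZB it ran from 0 to 41.2 CPM (median 27.0) at rest and from 15.8 to 29.2 CPM (median 19.6) after activation. No activated library was outside the resting range, but with a resting value of 0 none could lie below it. Over 21 libraries the mtDNA NZB ranges were 18.7 to 41.2 CPM at rest and 15.8 to 23.5 CPM after activation. The log2 difference was 0.52 (SE 0.18, 95% interval 0.15 to 0.89) with mtDNA B6 and -0.38 (SE 0.19, -0.77 to 0.01) in mtDNA NZB cells. Over 21 libraries the mtDNA NZB difference was -0.51 (-0.89 to -0.12). The 0 was again in the shallow replicate 2 and allows up to 50.8 CPM, above every other value of the gene. The highest resting mtDNA NZB value, 41.2 CPM, was in replicate 5, which also had the highest Tpm4 value.

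**Figure D3:**
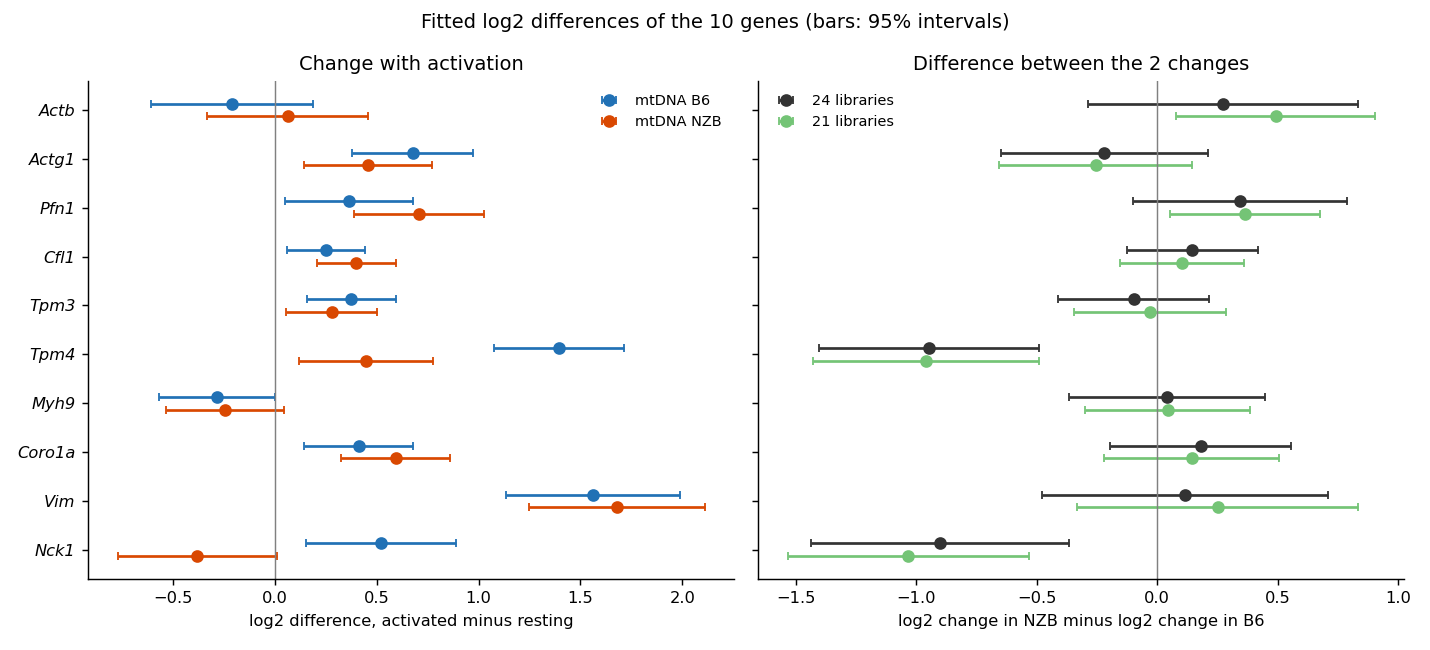
Fitted log2 differences of the 10 genes with 95% intervals: left, activated minus resting cells of each haplotype over 24 libraries, and right, the change in mtDNA NZB minus that in mtDNA B6 cells over 24 and 21 libraries. Tpm4 and Nck1 lie below 0 on the right (-0.95 and -0.90 over 24 libraries), and the other intervals over 24 libraries hold 0. Over 21 libraries the intervals of Actb (0.49, 0.08 to 0.90) and Pfn1 (0.36, 0.05 to 0.68) lie above 0.

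Set beside all genes, activation was accompanied by higher levels of most of the 10 genes. A gene was called when its p in edgeR's quasi-likelihood fit, adjusted by Benjamini-Hochberg, did not exceed 0.05, without a fold cut-off. By that rule 7 of the 10 genes were higher and 0 lower in activated mtDNA B6 cells, where 22.4% of all tested genes were called higher, and 24.5% lower. In mtDNA NZB cells the numbers were also 7 and 0, beside 25.2% and 28.4% of all genes. The genes called were Actg1, Cfl1, Tpm3, Tpm4, Coro1a and Vim in both haplotypes, Nck1 with mtDNA B6 and Pfn1 in mtDNA NZB cells. With the library set as a term, Cfl1, Coro1a and Nck1 were not past the rule in mtDNA B6 cells, which left 4 genes. In the second table the rule was passed by 5 genes in mtDNA B6 and 4 in mtDNA NZB cells, and with those 2 groups fitted alone 4 passed in mtDNA NZB cells. Tpm3 in mtDNA NZB cells was lost in 8 of 12 other settings, among them DESeq2, no filter, the stricter filter and every replicate block. Cfl1 in mtDNA B6 cells was lost in 5 of 12, among them no filter and the block by label number. Actg1, Tpm4 and Vim in mtDNA B6 and Pfn1, Coro1a and Vim in mtDNA NZB cells were lost in 0 of 12. Leaving out single libraries gave 6 to 8 and 5 to 7 genes: Cfl1 was lost in mtDNA B6 cells without activated replicate 4 or 5 or resting replicate 5, and in mtDNA NZB cells Tpm3 was lost without activated replicate 1, 2 or 5 or resting replicate 1, 3 or 4, and Tpm4 without activated replicate 6 or resting replicate 1, 3 or 4. The median log2 difference of the 10 genes was 0.39 in mtDNA B6 and 0.42 in mtDNA NZB cells, against -0.03 and -0.06 over all tested genes. The ranges of the states did not overlap for 6 genes in mtDNA B6 cells, where 31.8% of all tested genes did not overlap and 46.9% were called in either direction. They did not overlap for 3 genes in mtDNA NZB cells, where these shares were 18.9% and 53.5%. Over 21 libraries 8 were higher and 1 lower in mtDNA B6 cells (50.3% of all genes called, and 26.6% called lower) and for mtDNA NZB 7 higher and 1 lower (53.2%, and 28.7% lower). The lower genes were Myh9 in mtDNA B6 and Nck1 in mtDNA NZB cells. For settings other than the main fit and the 21 libraries, the share of all genes called is not given here. A drop among the 10 genes in those settings cannot be told from a general drop in calls. Since the genes were chosen with such values known, nothing is read from these counts.

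Between haplotypes, Tpm4 was the only one of the 10 genes past the call rule at rest, beside 1.9% of all genes called higher in mtDNA NZB cells, and it was not past it over 21 libraries (2.24% of all genes called higher and 3.88% lower). The call of Tpm4 at rest was also lost with DESeq2, without the filter, with the second table, with those groups alone and with the library set as a term, and when any of 12 single libraries was left out: resting mtDNA B6 replicates 1, 3, 4, 5 and 6, activated mtDNA B6 replicates 1, 2, 3 and 5, activated mtDNA NZB replicate 4, and replicates 5 and 6 of resting mtDNA NZB cells. After activation 0 of the 10 genes and 0 of all tested genes were called (0%), and DESeq2 also called 0. An unadjusted p under 0.05 was found for 327 of 10566 tested genes, a share below the 0.05 given when no gene differs. For the difference between responses 0 of all genes were called over 24 libraries (0%, with 1512 at an unadjusted p under 0.05 and 1 called by DESeq2) and 1.04% over 21 libraries, which then included Tpm4 and Nck1. The change of Tpm4 in mtDNA NZB cells minus that in mtDNA B6 cells was -0.95 on the log2 scale (SE 0.22, 95% interval -1.40 to -0.49), and by -0.96 over 21 libraries (-1.43 to -0.49). The value for Nck1 was -0.90 (SE 0.26, -1.44 to -0.37) and -1.03 over 21 libraries (-1.53 to -0.53). With the library set as a term the values were -0.90 for Tpm4 and -0.72 for Nck1, and without resting mtDNA NZB replicate 5 they were -0.76 and -0.74. The Tpm4 value nearest to 0 was -0.63, with the replicate block by label number over 21 libraries. Neither gene was past the call rule in the 21 libraries once the library set was a term, or with that block. The comparisons share groups of libraries, so a high resting mtDNA NZB level enters the resting, the activation and the response values alike. The 10 genes were chosen with such values known, so nothing is read from their calls between haplotypes either.

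Other genes of the actin machinery, in 11 lists of 125 genes without the 10, moved in both directions with activation. Of the 111 that were tested, 30 rose and 14 fell with mtDNA B6 (39.6% called, beside 46.9% of all genes), whereas with mtDNA NZB 26 rose and 30 fell (50.5%, beside 53.5%). Their median log2 differences were 0.06 and -0.09. Among them 22 rose and 12 fell in both haplotypes. With a fold cut-off of 2 the calls dropped to 7 and 13, so most changes were small. The macrophage, granulocyte and CD8 marker lists moved with the same comparison, and their part in these counts was not tested. The actin lists were chosen with earlier results of these data known, and genes named from them were picked mostly by size of change or by call. The counts and p-values of these lists, here and below, are thus a description.

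Among genes of filament assembly most calls were rises. Of the 9 Arp2/3 subunit genes, which build branched networks, mtDNA B6 cells had 6 rises and 0 falls, and mtDNA NZB cells 3 and 0, with medians of 0.33 and 0.26 on the log2 scale. Arpc5l rose by 0.63 ± 0.13 (SE) and 0.66 ± 0.13, and Arpc4 by 0.43 ± 0.12 and 0.55 ± 0.12. Of 10 tested genes of nucleation-promoting factors and the WAVE complex, mtDNA B6 cells had 4 rises and 0 falls, and mtDNA NZB cells 5 and 2. They included Wipf1, the WASP-binding protein WIP (0.60 ± 0.14 and 0.36 ± 0.14), and Hcls1, which stabilises branches in blood cells (0.48 ± 0.13 and 0.51 ± 0.13). Of 7 tested monomer-binding genes only Twf2, a twinfilin, rose in both haplotypes (0.32 ± 0.11 and 0.47 ± 0.11).

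Formins, which elongate straight filaments, were divided. Diaph3 rose by 1.76 ± 0.34 in mtDNA B6 and 2.14 ± 0.39 in mtDNA NZB cells, and Fmnl3 fell by 1.05 on the log2 scale in both, from 45.7 ± 5.53 to 22.0 ± 2.71 CPM and from 47.3 ± 5.77 to 21.6 ± 6.67 CPM (SD, n = 6). In all, 7 formins were tested, of which 2 rose and 2 fell with mtDNA B6, whereas with mtDNA NZB 1 rose and 2 fell. Of 10 tested genes of capping, severing and elongation, mtDNA B6 cells had 4 rises and 2 falls, and mtDNA NZB cells 3 and 4. Capg, a capping protein also abundant in macrophages, rose from 218 ± 35.6 to 489 ± 73.7 CPM and from 220 ± 51.4 to 589 ± 135 CPM, whereas gelsolin (Gsn) and supervillin (Svil) fell in both haplotypes, by 0.65 to 0.86 on the log2 scale.

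The cross-linkers held the largest rise. Fscn1, which bundles filaments in protrusions, rose from 6.22 ± 1.46 to 51.4 ± 12.3 CPM in mtDNA B6 cells (log2 difference 3.03 ± 0.24, edgeR adjusted p = 2.4e-10) and from 6.26 ± 3.17 to 42.0 ± 17.2 CPM in mtDNA NZB cells (2.53 ± 0.26, adjusted p = 1.4e-08). The coronin gene Coro1c rose by 1.08 ± 0.14 and 1.02 ± 0.15, beside 0.41 and 0.59 for its relative Coro1a. Actn1, the cross-linker α-actinin 1, fell from 500 ± 66.4 to 271 ± 59.6 CPM and from 531 ± 74.9 to 262 ± 50.1 CPM. Of the 14 tested genes of this list 6 rose and 2 fell in each haplotype.

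Calls among myosins, linkers and signalling genes were mixed. Of 9 tested myosin and light chain genes, mtDNA B6 cells had 0 rises and 3 falls, and mtDNA NZB cells 1 and 2. Of 12 tested membrane and adhesion linkers, mtDNA B6 cells had 3 rises and 1 fall, and mtDNA NZB cells 1 and 5. Talin (Tln1) fell and the kinase gene Ilk rose in both haplotypes. Ssh2, a phosphatase that activates cofilin, fell by 0.85 and 1.62 on the log2 scale. Of the 9 partners of NCK at the T cell receptor, mtDNA B6 cells had 1 rise and 0 falls, and mtDNA NZB cells 1 and 4. The exchange factor gene Vav1 was the 1 that rose in each (0.39 ± 0.11 and 0.38 ± 0.12), and Nck2, the paralog of Nck1, passed in neither (0.26 ± 0.16 and -0.19 ± 0.17). The myosin point farthest below 0 was a gene of few counts, Myh10 (log2 difference -4.51 ± 0.68 and -1.96 ± 0.80, 237 UMI counts in all libraries). The gene for SRF itself rose by 0.45 ± 0.12 and 0.47 ± 0.12, and neither of its MRTF cofactor genes was called.

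**Figure D4:**
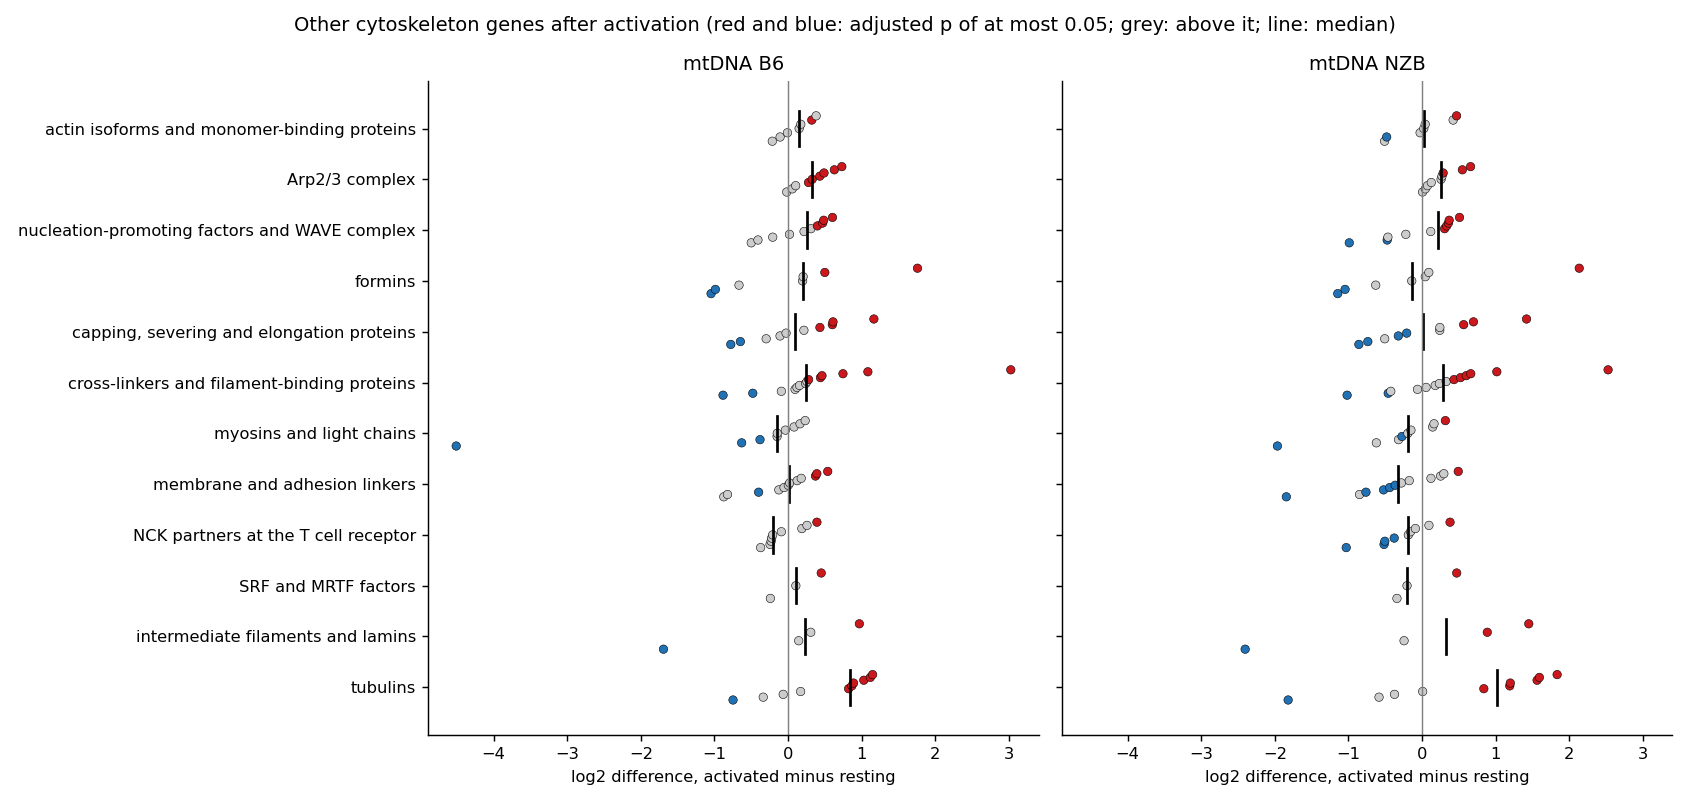
Fitted log2 difference of each tested gene of 10 actin lists and 2 other cytoskeleton lists, activated minus resting cells, for mtDNA B6 (left) and mtDNA NZB (right), with red and blue for genes that rose or fell by the call rule and a line at each list's median. Fscn1 (3.03 and 2.53) is the highest point, the Arp2/3 list has no blue point, and the tubulin medians (0.84 and 1.02) are the highest of the lists.

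Genes of other filament systems also changed. Of 10 tubulin genes 6 rose and 1 fell in each haplotype, with median log2 differences of 0.84 and 1.02. Tuba1b, an α-tubulin, rose by 1.15 ± 0.17 and 1.84 ± 0.18, and Tubb4b by 1.03 ± 0.20 and 1.56 ± 0.20, while Tubb2a fell by 0.75 and 1.82. Beside Vim, the lamin gene Lmnb1 rose (0.97 ± 0.26 and 1.45 ± 0.28) and Lmna, a lamin of the nuclear envelope, fell by 1.69 and 2.40 on the log2 scale.

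Between haplotypes at rest, 2 of the 111 actin genes were called, both higher in mtDNA NZB cells (1.80%, beside 2.76% of all genes). Ezr, the membrane linker ezrin, ran from 304 to 409 CPM (median 359) in mtDNA B6 and from 254 to 1121 CPM (median 467) in mtDNA NZB libraries, a log2 difference of 0.76 ± 0.20 (edgeR adjusted p = 0.039). Ssh2 ran from 75.9 to 115 CPM (median 86.5) and from 84.7 to 285 CPM (median 111), a difference of 0.78 ± 0.19 (adjusted p = 0.037). The groups overlapped for both genes, and the highest value of each was in replicate 5, the library with the highest Tpm4 and Nck1 values among resting mtDNA NZB cells. Without replicate 5, 0 of the actin genes were called, and the same held without resting mtDNA B6 replicate 1, 3, 4 or 5. Over 21 libraries 7 were called (6.25%, beside 6.11% of all genes), 6 higher and 1 lower in mtDNA NZB cells. Ezr, Ssh2, Sptan1, Sptbn1 and Tmod3 were among the higher ones, and Myh10 was the lower one. After activation and in the difference between responses 0 of the 111 actin genes were called by edgeR, with 4 and 15 at an unadjusted p under 0.05, and 0 by DESeq2. The 4 genes are a share below 0.05 and the 15 genes a share above it. Of the tubulins Tuba1a was higher at rest in mtDNA NZB cells (0.67 ± 0.16, adjusted p = 0.035).

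Genes with levels most like those of 4 of the genes were sought by Pearson's r of log2 CPM over the 24 libraries, among 7543 genes that reached a mean of 10 CPM, as a description. These libraries share depth, state and marker content. For Tpm4 the highest were Gdi2 (r = 0.90, and 0.90 over 21 libraries), Hmgcs1 (0.90 and 0.92) and Rad21 (0.89 and 0.90), each of which had a larger fitted activation difference in mtDNA B6 than in mtDNA NZB cells. For Coro1a they were Anxa6 (0.93 and 0.92), Selplg (0.92 and 0.92) and Fbxl8 (0.92 and 0.91). For Actb they were Nudt3 (0.73 and 0.61), Phc3 (0.73 and 0.63) and Ppie (0.70 and 0.51). For Nck1 they were Sec23a (0.99 and 0.83), Chuk (0.97 and 0.72) and Fhip2a (0.97 and 0.66), where the values over 24 libraries rest on the shallow replicate 2.

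All 10 genes lie on autosomes of GRCm39, and the last 1000 bases of Tpm3, Tpm4, Actb, Myh9, Vim and Nck1 hold no part of another annotated gene. Those of Pfn1, Cfl1 and Coro1a overlap Rnf167, Snx32 and Bola2 on the opposite strand, and that of Actg1 overlaps a microRNA model on the same strand. Counting by strand is not stated in the sources used here, so reads of such pairs cannot be told apart. Of annotated copies named after the genes, Tpm3-rs7 had 101 UMI counts in all libraries.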

How the data were processed

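Bulk MARS-seq was run on 24 libraries of Tconv cells, 6 per group. The authors counted genes with htseq-count and deposited a table of UMI counts per gene on GRCm39, corrected by them for saturation of the identifiers, and a second table, read here as counts before UMI deduplication; neither is normalized, and 1 column that matched no sample was not used. Groups came from the labels. The 10 genes and all lists were chosen with earlier results of these data known. The 4 groups were fitted together with edgeR 4.0.16 (R 4.3.3), using TMM scaling, filterByExpr (10566 genes kept) and quasi-likelihood tests whose p-values were adjusted by Benjamini-Hochberg across the genes kept. The script was tested on simulated data. Of each list, up to 3 genes called in the same direction in both haplotypes, with the largest mean change and a group mean of at least 10 CPM, could be named, and any called between haplotypes; Nck2, Tpm1, Tpm2 and the activation values of Myh10 were added after their values were seen. Alternatives were 21 libraries (without 3 that an earlier comparison with the study's mean counts had left out), DESeq2 1.42.0, other scaling and filters, the second table, a fold cut-off, each pair of groups alone, replicate blocks, the library set as a term and leaving out each library. After seeing the data, the block and the set term over 21 libraries were added. Depth ran from 51409 to 6449395 UMI counts, and limits for 0 counts (3 counts) cover counting error only. Replicates of a group differed beyond sampling noise. The values of 1 actin list, which is counted in the totals, are not reported here.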

Additional observations from a re-analysis of the deposited data

Results flagged for a closer look

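In 3 of 44 groups of 6 libraries, a library lay farther from the rest than Dixon's 95% value of 0.625 for its gap over the range, where chance gives about 1 in 20. Actg1 was lowest in resting mtDNA NZB replicate 2 at 0 CPM, with the next library at 34.4 CPM (gap over range 0.735), and the depth of that library allows up to 50.8 CPM. Pfn1 was lowest in activated mtDNA NZB replicate 6 at 499.861 CPM, with the next at 989 CPM (0.778). The summed share of the 10 genes was highest in activated mtDNA B6 replicate 3 at 2.93%, with the next at 2.45% (0.665).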

How the results depend on the processing

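Of 1750 alternative values for the log2 differences of the 10 genes, 1744 stayed within 1 SD of the main value, and the 6 that moved came from replicate block fits. Shifts beyond the SE of the main fit also came from other settings. Nck1 activation with mtDNA B6 went from 0.52 (SE 0.18) to 0.28 with the library set as a term. Tpm4 between haplotypes at rest went from 0.61 (SE 0.16) to 0.42 without resting mtDNA NZB replicate 5. In 42 of the 1750 the sign changed, for 11 differences of which 0 were past the call rule and none exceeded 0.15 on the log2 scale. The replicate block by label number over 21 libraries gave Tpm4 a difference between responses of -0.63 and an activation difference of 0.71 with mtDNA NZB. The block by title number ended the call of Tpm4 at rest. The number of actin list genes called fell with the fold cut-off to 7 with mtDNA B6, 13 with mtDNA NZB and 0 between haplotypes at rest. At rest the 2 calls became 7 over 21 libraries and 0 with the second table, with 2 groups only, with the replicate block by title number and with the library set as a term. With the replicate block by label number 34 genes were called in mtDNA NZB cells in place of 56. Libraries of the same label number correlated between -0.16 and 0.25 in their deviations from the group means, which cannot exclude shared animals. The labels do not say what the numbers mean, and the main fit did not take them as pairs. Leaving out single libraries gave 43 to 48 calls for activation with mtDNA B6, 48 to 56 with mtDNA NZB, 0 to 6 at rest, and 0 after activation and for the difference between responses. It gave summed shares of 2.03 to 2.11% and 2.35 to 2.49% in resting and activated mtDNA B6 cells, and 1.99 to 2.33% and 2.67 to 3.04% in mtDNA NZB cells. The second table gave 2.51% and 2.85% in mtDNA B6 cells. The causes were not tested. Low counts limit Actg1, Nck1 and every value of the shallowest library.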
